A study of Mus musculus with 247 samples.

Results

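PU.1 binding was compared between GPS2 knockout (KO) and wild-type (WT) RAW264.7 cells, a mouse macrophage line, in the absence of any stimulus. The libraries were chosen by the column headers of the PU.1 ChIP-seq table, which assign 2 libraries to untreated KO cells and 2 to untreated WT cells, 4 of the 247 samples of the series. All 52093 sites of the table were taken, and 52009 with enough reads were tested. By its title, the series is about what the corepressors GPS2 and SMRT do at enhancers and silencers when macrophages become inflammatory.

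Both groups were the same cell line, labelled as macrophages of the BALB/c strain, grown in serum-containing medium and given no agent. Per the labels, knockouts in these cells were made with CRISPR/Cas9; no label says whether the KO libraries came from 1 clone or several, so a difference between clones and the loss of GPS2 cannot be told apart. The table also holds 2 WT and 2 KO libraries from cells given lipopolysaccharide (LPS) for 2 h. Their values do not enter the untreated change itself, but they were part of the same fit and share in its scaling and spread. RNA-seq (4 WT and 4 KO untreated libraries), JunB ChIP-seq (2 and 2) and ATAC-seq (3 KO libraries and 3 of a CRISPR control line, not of the WT cells) served as further readouts. The RNA and JunB fits also took the LPS-treated WT and KO libraries of these assays, which share in their scaling and spread.

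PU.1, encoded by Spi1, is a transcription factor of the ETS family that binds purine-rich DNA around a GGAA core. In macrophages it occupies a large part of the enhancers and promoters, keeps them open together with partners such as C/EBP and AP-1 factors, and sets the positions at which signal-dependent factors bind. GPS2 works with the corepressors NCOR and SMRT and the deacetylase HDAC3 and is known as a brake on inflammatory and metabolic genes in macrophages. ChIP-seq counts DNA fragments recovered with an antibody, so in these bulk samples fewer cells with PU.1 at a site and less PU.1 per cell cannot be told apart.

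The sites on which the results below turn are shown first, as the bases within 100 of the centre of each site, read from the plus strand of mm9 and written 5′ to 3′. Capitals mark the PU.1 core GAGGAAGT or the shorter ETS core GGAAGT on either strand; every PU.1 core contains an ETS core. The first set holds the sites with the largest rises, Zyg11a at chr4:107865544-107865744 and Gm8994 at chr6:136241980-136242180, and the largest falls, St3gal3 at chr4:117817001-117817201 and Osbpl9 at chr4:108795836-108796036, each named by its nearest gene. The windows of Gm8994 and St3gal3 hold a PU.1 core, and those of Zyg11a and Osbpl9 hold no capitals.
Zyg11a: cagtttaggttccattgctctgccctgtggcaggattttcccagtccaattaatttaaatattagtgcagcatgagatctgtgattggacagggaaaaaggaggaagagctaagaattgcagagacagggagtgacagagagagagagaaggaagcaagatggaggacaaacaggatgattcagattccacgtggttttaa
Gm8994: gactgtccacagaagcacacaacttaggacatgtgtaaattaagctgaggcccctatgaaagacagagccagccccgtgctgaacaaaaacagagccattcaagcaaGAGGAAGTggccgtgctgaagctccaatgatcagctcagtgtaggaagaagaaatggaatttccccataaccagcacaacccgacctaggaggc
St3gal3: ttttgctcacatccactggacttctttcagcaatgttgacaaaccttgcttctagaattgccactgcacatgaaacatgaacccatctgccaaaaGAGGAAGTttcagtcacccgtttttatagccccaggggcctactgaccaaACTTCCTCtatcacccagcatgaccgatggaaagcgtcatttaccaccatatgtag
Osbpl9: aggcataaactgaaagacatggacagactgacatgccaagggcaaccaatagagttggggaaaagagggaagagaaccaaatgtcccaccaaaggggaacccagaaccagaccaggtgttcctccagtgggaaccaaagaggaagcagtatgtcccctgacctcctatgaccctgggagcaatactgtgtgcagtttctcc

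The second set holds 3 sites of genes with large changes in RNA: the site upstream of Gpnmb at chr6:48972807-48973007, the Cd36 promoter at chr5:17341794-17341994, and an intronic site of Rarb at chr14:17472074-17472274, the last chosen after its values were seen. They are shown because their genes link PU.1 to RNA in both directions.
Gpnmb: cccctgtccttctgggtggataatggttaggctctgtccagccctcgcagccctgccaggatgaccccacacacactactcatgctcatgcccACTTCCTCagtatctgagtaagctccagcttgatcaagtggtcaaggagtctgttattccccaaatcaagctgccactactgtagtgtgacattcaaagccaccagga
Cd36: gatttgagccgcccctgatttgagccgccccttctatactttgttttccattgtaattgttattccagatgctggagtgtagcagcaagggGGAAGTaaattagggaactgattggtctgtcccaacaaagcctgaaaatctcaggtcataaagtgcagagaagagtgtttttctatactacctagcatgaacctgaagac
Rarb: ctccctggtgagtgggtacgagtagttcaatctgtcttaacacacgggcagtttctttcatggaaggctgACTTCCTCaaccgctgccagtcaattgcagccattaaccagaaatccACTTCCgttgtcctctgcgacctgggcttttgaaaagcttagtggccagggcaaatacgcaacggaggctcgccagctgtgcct

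The third set holds 2 sites in repeated DNA, shown because such sites stand among the highest and the most raised: the satellite site nearest to Lrrc4c at chr2:98507204-98507404 and the ribosomal RNA repeat nearest to Txndc11 at chr16:11144088-11144288. Neither window holds an ETS core.
Lrrc4c: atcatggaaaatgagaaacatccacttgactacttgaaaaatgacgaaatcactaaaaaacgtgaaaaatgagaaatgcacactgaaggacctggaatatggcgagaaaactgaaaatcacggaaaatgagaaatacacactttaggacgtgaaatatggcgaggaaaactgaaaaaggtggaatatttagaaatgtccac
Txndc11: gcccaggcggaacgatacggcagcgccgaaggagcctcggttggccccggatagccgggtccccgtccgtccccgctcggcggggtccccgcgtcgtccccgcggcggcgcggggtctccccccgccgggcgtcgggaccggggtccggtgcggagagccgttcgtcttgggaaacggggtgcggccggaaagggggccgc

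The untreated WT libraries had 10105200 and 8699941 mapped reads and the KO libraries 9150809 and 8096466. The replicate libraries of each group differed by no more than sampling noise (chi-square per site 0.881 in WT and 0.957 in KO, where 1 stands for counting noise alone), so each pair stands for 1 sample and no SD is given for PU.1. The limma fit takes each library on its own, so the SEs and p-values below rest on the spread within such pairs; they compare these libraries and carry no spread between independent cultures. For the sites with the most reads the fitted SEs are smaller than counting error alone would give. The SEs and p-values of such sites are therefore too small. Macrophage markers were present: the 8 fixed marker genes, Csf1r and Lyz2 among them, summed to between 75936 and 84096 RNA reads per 10000000 in WT and between 107282 and 113903 in KO. Lymphocyte, granulocyte and fibroblast markers were not in the RNA table or had means under 5 reads per 10000000, apart from Lck, at 37.2 ± 0.306 in WT and 78.7 ± 3.0 in KO (SD, n = 4 each). Gps2 RNA was 434 ± 18.5 in WT and 132 ± 2.38 in KO (n = 4 each), so the transcript was reduced in KO cells and still detected.

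A smaller share of the reads lay in PU.1 sites in KO cells. It was 24.8% and 25.2% in the WT libraries and 17.5% and 17.2% in the KO libraries, without overlap. Spi1 RNA moved in the same direction: it was 3230 ± 164 reads per 10000000 in WT and 2075 ± 51.6 in KO (SD, n = 4 each), a log2 change of -0.64 ± 0.07 (SE; limma with Benjamini-Hochberg adjustment, adjusted p = 2.11e-06). None of the 4 PU.1 sites nearest to Spi1 passed the test, which was run on values scaled as described in the next paragraph. At the promoter site closest to its start the deposited values were 56.4 and 57.5 reads per 10000000 in WT and 28.4 and 28.4 in KO. After that scaling they were 37.4 and 37.8 in WT and 27.4 and 27.9 in KO (log2 change -0.43, limma, adjusted p = 0.247). Whether the lower share of reads reflects less PU.1 on DNA or a difference in the enrichment of the libraries was not tested.

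How the sites as a whole are counted follows from this difference. With reads scaled by library totals alone, the median site was lower in KO by 0.54 (log2 change -0.54), and 271 sites were higher (0.521% of those tested) and 24052 lower (46.2%). All values from here on were instead scaled so that most sites are level between libraries (trimmed mean of M values, TMM), so a rise or fall is a change relative to the other PU.1 sites. A value is a TMM-scaled number of reads per 10000000 mapped reads. On this scale 2421 sites were higher in KO (4.65% of 52009) and 1653 lower (3.18%) at an adjusted p under 0.05 (limma with precision weights, Benjamini-Hochberg). Of these, 501 rose and 544 fell by more than 1 on the log2 scale. The counts are much lower when a library is left out: between 925 and 1423 higher, and between 380 and 1124 lower, with 380 falls without KO replicate 1, 397 without KO replicate 2 and 990 without WT replicate 1.

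**Figure D1:**
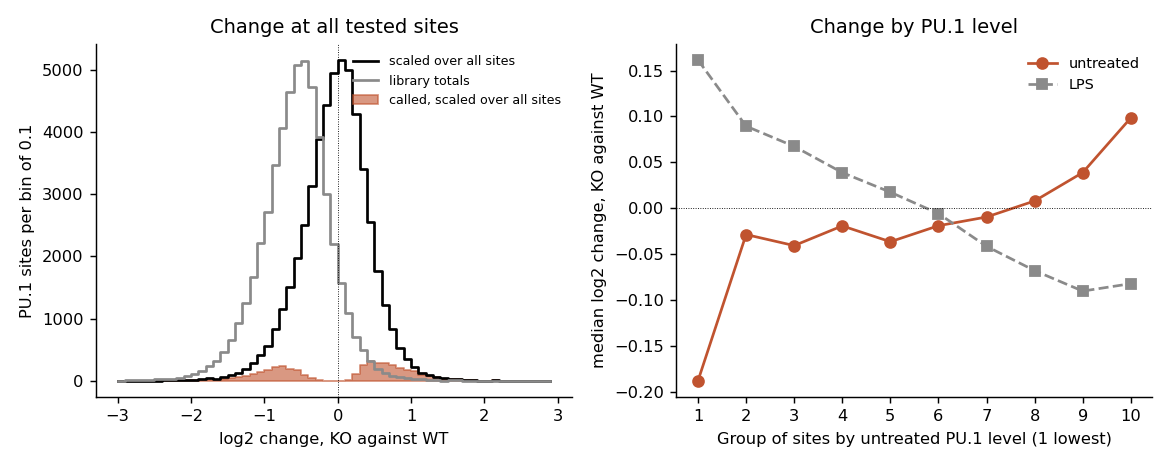
Left, number of PU.1 sites (y axis) by log2 change, KO against WT (x axis, bins of 0.1), with libraries scaled over all sites (black), with library totals alone (grey), and for the sites that passed the test on the first scale (filled). Right, median log2 change (y axis) for 10 equal groups of the sites ordered by untreated PU.1 level (x axis), without LPS (circles) and with LPS (squares). With library totals the whole distribution lies to the left, with a median of -0.54; the untreated medians run from -0.19 in the lowest group to 0.10 in the highest and the LPS medians the other way, from 0.16 to -0.08.

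The authors' deposited table of the same comparison gives 149 sites an adjusted p under 0.05, of which 117 have a log2 change above 0 and 32 below. Each of the 149 had the same sign here and passed the test. The table also records in which libraries' peak lists each site was found; 7 of the 8 lists are named, and that of KO replicate 1 is not among them. Sites in both WT lists and the KO list numbered 42340, with 2246 higher and 1358 lower. Another 7416 sites were in at least 1 WT list and not in the KO list: 3 of them rose, 291 fell, and their median levels were 12.6 in WT and 9.43 in KO. The reverse, presence in the KO list and in no WT list, held for a small group in which 52 sites rose (19.6%) and 1 fell. Most sites missing from one group's list were thus low in both groups and did not pass the test.

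The 12 largest rises among well-occupied sites (mean of at least 50 in the higher group) ran from 1.69 to 2.11 on the log2 scale, and in each of them both KO libraries lay above both WT libraries by the rule that chose them. None lay within 1000 bases of a transcription start. The largest was an intronic site in an LTR repeat on chromosome 4, at 107865504 to 107865785, with Zyg11a as the nearest gene. Its values were 10.5 and 12.1 in WT and 45.3 and 60.6 in KO, a log2 change of 2.11 ± 0.27 (SE; limma, adjusted p = 5.72e-12). Both KO libraries stood well above both WT libraries. An intergenic site nearest to Gm8994 (chromosome 6, 136241947 to 136242214) had 13.8 and 15.9 in WT and 69.5 and 59.4 in KO, a log2 change of 2.06 ± 0.24. Accessibility at this site rose too, by 1.08 on the log2 scale (ATAC-seq, control line as the reference).

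Another intergenic site lay downstream of Plpp3, which encodes a lipid phosphate phosphatase, with 16.4 and 20.4 in WT and 75.8 and 76.4 in KO (log2 change 2.01 ± 0.21). Other sites of this kind were nearest to Olfm3, an olfactomedin family gene (1.92), Adgrl3, a latrophilin receptor (1.96), Lrpap1, a chaperone of LDL receptor family proteins (1.78), 4930406D18Rik (1.83) and Gm17746 (1.69). These 8 sites outside ribosomal RNA repeats were also higher in KO with LPS. The LPS libraries do not enter the untreated change itself, but they share the fit, its scaling and its spread. At the Plpp3 site the LPS values were 14.5 and 12.7 in WT and 51.3 and 58.4 in KO. Of all 12 rises, ribosomal RNA repeats included, 10 overlapped an ATAC-seq site, and 8 of the 10 were more accessible in KO. The more accessible ones include the repeat sites nearest to Cdk8 and Filip1l, while the Plpp3 and Gm17746 sites overlapped no ATAC-seq site. Of all tested PU.1 sites, not matched for PU.1 level, 72.6% overlapped one, and 4.25% of those were more accessible.

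The 12 largest falls ran from -1.30 to -1.77, and 10 of the 12 lay in introns by the authors' annotation. The site nearest to St3gal3, a sialyltransferase gene, lies inside another gene, Kdm4a (chromosome 4, 117816938 to 117817265). The authors' annotation places it in an intron, while the printed window overlaps an exon of the gene annotation used here. It had 48.5 and 52.2 in WT and 12.6 and 15.8 in KO, a log2 change of -1.77 ± 0.29 (adjusted p = 3.72e-07). With LPS the values were 64.3 and 71.0 in WT and 79.1 and 93.2 in KO, so the groups lay in the opposite order there, with a change of 0.34 that did not pass the test (adjusted p = 0.188). The site in an intron of Osbpl9, an oxysterol-binding protein family gene, had 59.0 and 54.5 in WT and 19 and 14.6 in KO (log2 change -1.70 ± 0.27). This fall held with LPS (-1.02, adjusted p = 0.00491) and accessibility was lower as well (-0.20, adjusted p = 0.0170).

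The site nearest to Rtf2, a gene of DNA replication termination, lies in an intron of the neighbouring gene Cass4 and had 49.1 and 56.0 in WT and 16.8 and 14.6 in KO (log2 change -1.67 ± 0.28) and was also lower with LPS (-1.15) and in ATAC-seq (-0.36). Rgs14, a regulator of G protein signalling, had a site that fell by 1.37 without LPS and by 1.28 with it. The remaining falls were nearest to Pitpnb (-1.65), Rprm (-1.54), Spsb1 (-1.53), Dusp11 (-1.46), Tex29 (-1.45), Sync (-1.36), Ccdc93 (-1.33) and Gm12530 (-1.30). Of the 12 falls, 4 were also lower with LPS and 1, at Dusp11, was higher (1.11). Of the same 12, 11 overlapped an ATAC-seq site, and 7 of these were less accessible in KO, against 3.62% of all PU.1 sites with an ATAC-seq value.

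**Figure D2:**
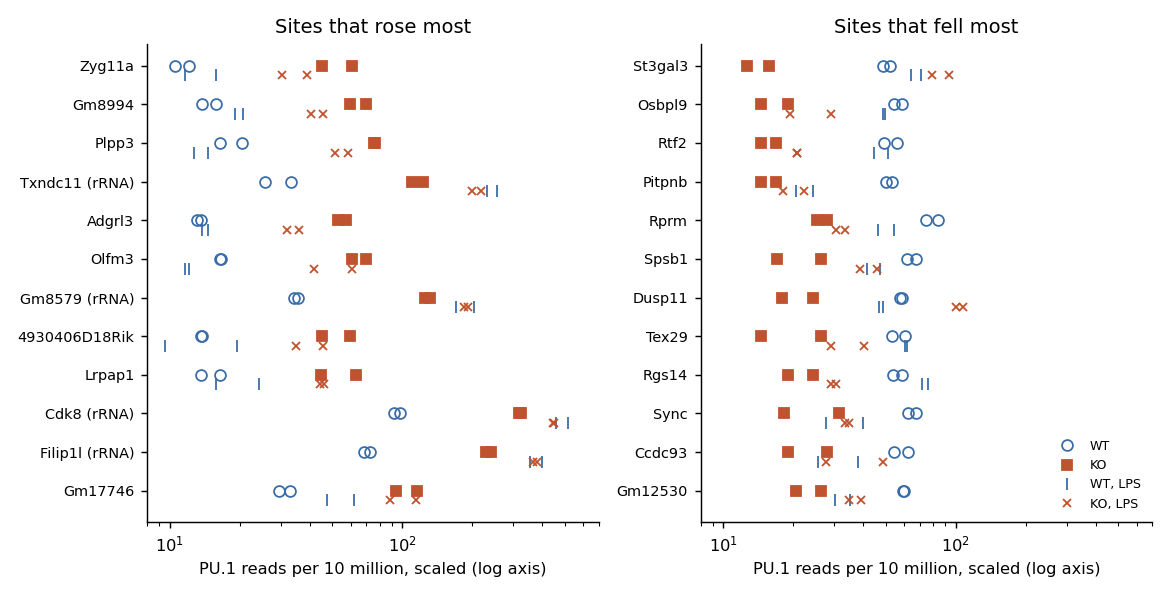
PU.1 signal of each library (x axis, TMM-scaled reads per 10000000, log axis) at the 12 sites that rose most (left) and the 12 that fell most (right), named by nearest gene (y axis), in untreated WT (open circles), untreated KO (squares), WT with LPS (vertical ticks) and KO with LPS (crosses). The 4 ribosomal RNA repeat sites are marked; at these the WT libraries with LPS lie with the KO libraries, while at the Plpp3 site they stay at 14.5 and 12.7.

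The 5 sites with the most PU.1 in WT cells changed little or moderately. The highest was the satellite site nearest to Lrrc4c, with 965 and 1030 in WT and 1675 and 1915 in KO (log2 change 0.85). Its fitted SE of 0.00565 is far below the spread of its 2 KO libraries. At the next, upstream of Esr1, the values were 484 and 483 in WT and 623 and 594 in KO, a rise of 0.34 ± 0.03. This SE is also smaller than counting error alone would give. The site nearest to Bcl2l11, a gene of programmed cell death, had 410 and 407 in WT and 403 and 424 in KO, with overlapping groups and a change of 0.01 ± 0.04 (adjusted p = 0.876). The sites nearest to Atp1b3 and H2afy rose by 0.40 and 0.29. With library totals alone these 4 sites other than the satellite were lower in KO, by values given in the closing section, so their direction depends on the scaling.

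Sites in ribosomal RNA repeats formed a group of their own, singled out after their values were seen. Of 20 such sites 17 rose (85.0%, against 4.65% of all sites) and none fell, with a median log2 change of 1.57. Their median level was 22.6 in untreated WT and 60.3 in KO, and 114 in WT and 110 in KO with LPS. Untreated WT was thus the lowest of the 4 groups, and with LPS only 1 of the 20 was higher in KO. The site nearest to Txndc11 showed this: 25.6 and 33.3 in WT, 123 and 110 in KO, and with LPS 255 and 231 in WT and 200 and 217 in KO. Reads of repeated genes can be placed at many copies, and the part of such placement in this result was not tested. Without all ribosomal RNA and satellite sites 2402 sites were higher and 1653 lower, so they carry few of the calls.

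By position, the share of falls was lowest at promoters among the classes with over 1000 sites. Among 4893 promoter sites 212 rose (4.33%) and 55 fell (1.12%, against 3.18% of all sites). The 21205 intergenic sites had 1089 rises and 694 falls, the 23093 intronic sites 1033 and 783, and the 980 exonic sites 29 and 53. Sites in LTR repeats, remnants of retroviruses, numbered 6149, with 274 rises and 273 falls. With LPS the LTR sites had 672 rises and 203 falls in KO, a different balance, whose difference was not tested as a group.

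A larger share of the strongly occupied sites rose. When the sites were split into 10 groups by level, the highest group (65.9 to 1396 reads per 10000000) had 853 rises (16.4%) and 217 falls (4.17%), with a median log2 change of 0.10. The lowest group (1.46 to 10.4) had 10 rises and 34 falls and a median of -0.19, and more reads at a site also make a call easier. The fitted SEs of the highest sites are also smaller than counting error alone would give, which adds calls there. A scaling that levels the trend along the signal (loess, added after the trend was seen) left 458 rises and 365 falls in the highest group, so the excess of rises there depends on the scaling. Over all sites it gave 2110 rises and 1716 falls.

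The PU.1 core stood at a larger share of the sites that rose. GAGGAAGT, on either strand within 100 bases of the centre, was found at 39.9% of sites that rose (95% exact interval 37.9 to 41.9), 24.8% of those that fell (22.8 to 27) and 24.4% of those that did neither, against 25.1% of the 51949 tested sites that lie on a chromosome of the genome used, over which all motif shares are given. Within 50 bases the shares were 37.6%, 21% and 22.3%. The shorter ETS core GGAAGT, which includes every PU.1 core, stood at 79.8% of rises, 62.2% of falls and 63.8% of all sites. The intervals cover counting error only, and overlapping or neighbouring sites are not independent.

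The share was highest among rises in each of 5 groups of the sites by level, while the order of falls and uncalled sites varied. In the highest group the core was found at 45.7% of 1260 rises, 27.1% of 520 falls and 30.5% of the other 8610 sites. In the lowest group only 56 sites rose, 25% of them with the core, against 11.3% of 71 falls and 22.1% of those not called. Read the other way, 7.39% of the 13056 sites with the core rose and 3.14% fell, and of the 38893 without it 3.74% rose and 3.19% fell.

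**Figure D3:**
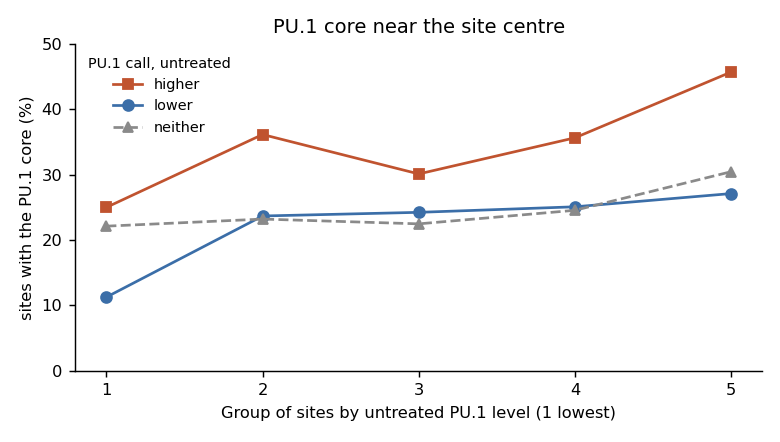
Share of PU.1 sites with GAGGAAGT within 100 bases of the centre (y axis, percent) in 5 equal groups of the sites by untreated PU.1 level (x axis), for sites that rose (squares), fell (circles) or did neither (triangles). In the highest group the shares are 45.7%, 27.1% and 30.5%.

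Motifs of partner factors differed less. The AP-1 motif TGANTCA stood at 10.7% of rises and 11.6% of falls, below the 13.9% of all sites. The C/EBP motif TTGCNNAA was found at 13.1% of rises, 10.5% of falls and 10.3% of all sites, and the CARE motif TGATGNAA, bound by ATF4 with C/EBP partners, at 5.21%, 2.91% and 3.69%. The RUNX motif TGTGGTT stood at 7.38% of falls, 5.67% of rises and 5.48% of all sites. All were searched on both strands in the same windows, and a match describes letters and not binding.

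Chromatin accessibility moved with PU.1. Of the 2421 sites that rose 1934 overlapped an ATAC-seq site (79.9%), as did 1325 of the 1653 that fell (80.2%) and 72.6% of all sites. These shares were not matched for PU.1 level. Over all sites the overlap climbed from 49.3% in the lowest of the 10 groups by level to 96.5% in the highest, which held 853 of the rises. The shares therefore do not show more overlap at called sites than at others of their level. In ATAC-seq as a whole 4.04% of sites were higher in KO and 3.16% lower. Of the 1934 rises 337 were more accessible (17.4%) and 26 less (1.34%), and of the 1325 falls 4 were more accessible and 230 less (17.4%). Among rises of more than 1 on the log2 scale, 139 of 300 with an ATAC-seq value were more accessible and 1 less, and among falls of that size 93 of 380 were less accessible and 1 more. Over 37766 sites the changes in the 2 assays had a Spearman correlation of 0.27, given as a description, since sites share their libraries.

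JunB, an AP-1 subunit, was found at 50.9% of the sites that rose, 40.4% of those that fell and 41.8% of all sites, shares not matched for PU.1 level. In the JunB data as a whole 5.97% of sites were higher in KO and 2.82% lower. At the 1232 PU.1 rises with a JunB value, 158 JunB sites were higher and 19 lower, and at the 667 falls 10 were higher and 78 lower. The median JunB change was 0.17 at rises and -0.37 at falls, on the log2 scale. JunB calls depend on the WT libraries: without WT replicate 2, 553 JunB sites in all were higher in place of 3510.

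The untreated changes were shared with LPS-treated cells only in part. With LPS 4.90% of PU.1 sites were higher in KO and 3.90% lower. Of the 2421 untreated rises, 274 were also higher with LPS and 134 were lower; of the 1653 falls, 9.13% were also lower (151 sites) and 176 were higher. Of 501 rises over 1 on the log2 scale 101 were higher with LPS and none lower. Of 544 falls of that size 38 were lower with LPS and 68 higher. The effect of genotype itself differed between the treatments at 4299 sites, 2189 with a higher and 2110 with a lower effect under LPS (interaction term, limma, adjusted p under 0.05), and over all sites the changes had a Spearman correlation of 0.025. PU.1 without LPS, PU.1 with LPS and ATAC-seq were called in the same direction at 88 sites that rose, near 69 genes, and 48 that fell, near 47 genes.

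**Figure D4:**
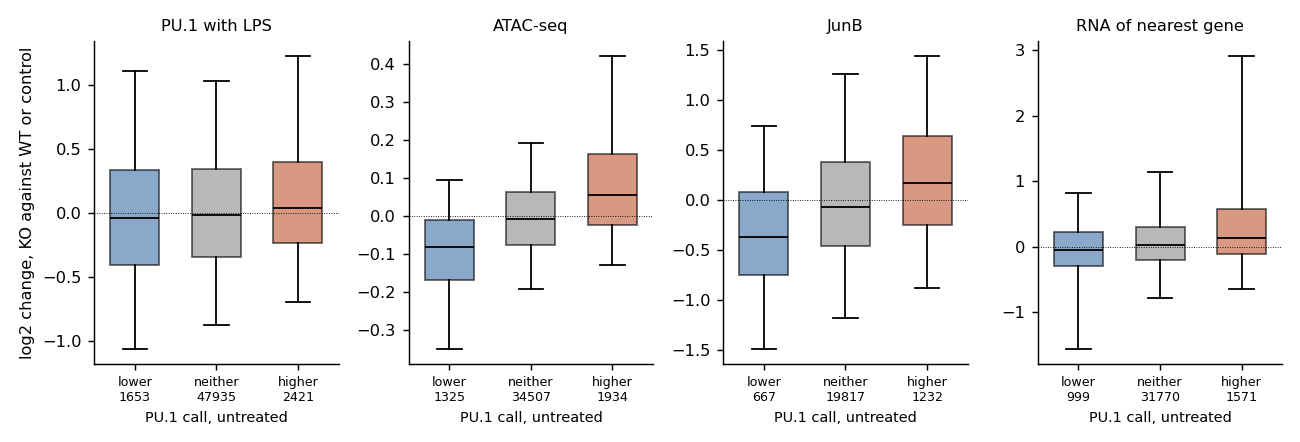
Log2 change, KO against WT (ATAC-seq: against the control line), of 4 other readouts (y axes, each with its own scale) at PU.1 sites that were lower, neither or higher without LPS (x axis, with the number of sites that have a value). Boxes span the quartiles with the median as a line, and whiskers the 5th to 95th percentile. The ATAC-seq medians are -0.08, -0.01 and 0.05 and the JunB medians -0.37, -0.07 and 0.17, while the LPS medians lie within 0.05 of 0.

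RNA of the nearest gene went with the number of changed sites. In RNA-seq 18% of genes were higher in KO and 17.5% lower. Of 9497 genes with a PU.1 site and an RNA value, 19.1% were higher and 17.8% lower. Among the 1122 such genes with at least 1 raised and no lowered site, 352 (31.4%) were higher and 140 (12.5%) lower. At least 4 raised and no lowered sites were found for 30 genes, of which 16 had an RNA value; 14 of the 16 (87.5%) were higher and none lower. In the other direction, 711 genes with an RNA value had at least 1 lowered and no raised site, of which 119 (16.7%) were higher and 171 (24.1%) lower, and with at least 2 such sites 24 of 73 (32.9%) were lower and 9 higher. Genes with many sites have more chances of a call, so the number of sites goes with these shares.

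**Figure D5:**
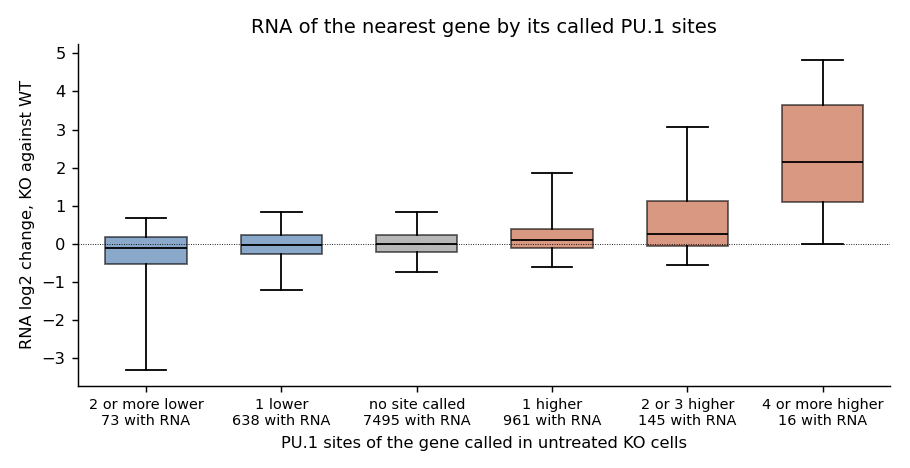
RNA log2 change, KO against WT (y axis), of genes grouped by how many of their PU.1 sites were called in untreated cells (x axis, with the number of genes that have an RNA value). Boxes span the quartiles with the median as a line, and whiskers the 5th to 95th percentile. The median is 2.15 for the 16 genes with an RNA value and 4 or more raised sites, and -0.10 for the 73 with 2 or more lowered sites.

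Genes with several raised sites, named after their values were seen, were led by Rarb, the retinoic acid receptor beta. Of its 12 sites 10 rose. The intronic site shown above (chromosome 14, 17472024 to 17472324) had 4.59 and 8.32 in WT and 29.5 and 29.1 in KO, a log2 change of 2.11 ± 0.39. Its site at 17380775, over an exon by the authors' annotation, had 32.1 and 33.3 in WT and 101 and 87.3 in KO (1.51 ± 0.16), with gains in ATAC-seq (0.77) and JunB (2.01). Rarb RNA was 80.1 ± 9.05 reads per 10000000 in WT and 369 ± 23.2 in KO (SD, n = 4 each; log2 change 2.19).

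Raised sites also gathered near Sorl1, a sorting receptor (8 of 14 sites; RNA log2 change 3.20), Ext1, a heparan sulfate polymerase (7 of 14; 1.18), and Opcml, a GPI-anchored adhesion protein (7 of 11; 4.04). Plpp3 had 5 raised sites of 7, between 1.27 and 2.01 on the log2 scale, and RNA of 0.443 ± 0.355 in WT and 5.13 ± 0.961 in KO. On the other side Sh3pxd2a, a podosome scaffold, had 4 lowered sites of 10 (RNA -2.81), Enpp4, an ectonucleotidase, 3 of 3 (-2.73) and Klf9, a Krüppel-like factor, 3 of 5 (-3.13). Runx1, a partner of PU.1 in blood cells, had 4 lowered sites of 36 and an RNA change of -0.38.

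Read from the RNA side, only genes with a mean of at least 100 reads per 10000000 in the higher group were ranked. Of the 10 such genes with the largest RNA rises, 9 had at least 1 raised PU.1 site and none had a lowered one; over all 16217 genes nearest to a tested site, 1989 had a raised site and 1474 a lowered one. The exception was Cth, an enzyme of cysteine synthesis, with 6 sites and no call. Slpi, a secreted protease inhibitor, had RNA of 5.45 ± 0.934 in WT and 172 ± 14.8 in KO (SD, n = 4 each). Its main site, intergenic on chromosome 2 (164198410 to 164198727), had 24.9 and 16.6 in WT and 63.2 and 60.6 in KO, a log2 change of 1.54 ± 0.21 (adjusted p = 2.32e-10). JunB (1.67), ATAC-seq (0.53) and PU.1 with LPS (1.39) were higher there too.

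Trem3, an activating myeloid receptor, had its 1 site at the promoter, with 62.9 and 65.1 in WT and 89.5 and 103 in KO (0.57 ± 0.13), while its RNA rose by 4.44 on the log2 scale. Plscr4, a phospholipid scramblase, had 3 raised sites of 3, the highest with 11.1 and 14.4 in WT and 45.3 and 42.4 in KO (1.73). Cd200r4, the gene with the largest RNA rise among those ranked (5.31), had 1 raised site of 3, which lies in an intron of Cd200r1 by the authors' annotation. The highest Cd200r4 site was level at 47.2 and 49.9 in WT and 49.5 and 55.8 in KO (limma, adjusted p = 0.764). Tmem154 (1 raised site of 12), Fabp4, a fatty acid carrier (1 of 2), Gpnmb (2 of 3), Opcml and Cd200r1 (1 of 4) completed the group.

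Among the 10 ranked genes with the largest RNA falls, 5 had a lowered site, against 1474 of 16217 genes in all: Gypc (1 of 3), Cd36, Klf9, Sh3pxd2a and Enpp4. Zfp395, whose RNA was 112 ± 3.64 in WT and 0.240 ± 0.480 in KO, had 1 site with 45.9 and 39.3 in WT and 31.6 and 32.7 in KO, which did not pass the test (adjusted p = 0.243). Epop, Col18a1 and Dmwd had sites and no call, and no tested site was nearest to Zmynd15.

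Cd36, a scavenger receptor for lipids, had sites that moved in both directions, while its RNA was 2104 ± 103 in WT and 104 ± 15.0 in KO. At the promoter on chromosome 5 (17341741 to 17342047) PU.1 was 43.9 and 36.3 in WT and 10.5 and 15.8 in KO, a fall of 1.60 (log2 change -1.60 ± 0.31, adjusted p = 4.28e-05). A first-intron site at 17345421 rose, with 41.9 and 59.8 in WT and 70.5 and 92.2 in KO (0.68 ± 0.15), and another at 17385711 fell (-0.66). The other 5 of its 8 sites did not pass the test.

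Gpnmb, a glycoprotein of lysosome-rich macrophages, had RNA of 2129 ± 71.1 in WT and 39169 ± 846 in KO. Its farthest upstream site, shown above, had 12.4 and 8.32 in WT and 30.5 and 38.8 in KO (1.63 ± 0.30, adjusted p = 1.10e-05), and a nearer one rose by 1.23. The site closest to the gene had 10.5 and 9.08 in WT and 12.6 and 21.8 in KO and did not pass the test (0.68, adjusted p = 0.248).

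No site of Csf1r, the receptor for macrophage colony-stimulating factor, or of Ccl2, a chemokine for monocytes, passed the test. The highest Csf1r site had 163 and 160 in WT and 185 and 192 in KO, without overlap (0.21, adjusted p = 0.0631, the smallest of its 5 sites). Of 10 sites nearest to Ccl2 the smallest adjusted p was 0.104, at a site with 53.1 and 40.1 in WT and 72.7 and 52.1 in KO, whose groups overlapped. The 2 sites nearest to Gps2 itself were not called either.

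Among 17 gene lists, the sites of TREM, Pilr, Cd200r and Cd300 receptor genes, paired activating and inhibitory receptors of myeloid cells, had the largest share of rises. All 17 lists and their members were chosen with earlier results of these data known. Their PU.1 and RNA shares therefore describe the lists and test nothing. Of their 77 sites 19 rose (24.7%, against 4.65% of all sites) and 3 fell, with a median log2 change of 0.19 against -0.01 over all sites. At Treml2 a raised site at 48440244 had 6.55 and 15.1 in WT and 19 and 21.8 in KO (0.99), and another at 48439569 rose by 0.85. The raised site nearest to Cd200r4, in an intron of Cd200r1 by the authors' annotation, had 19.7 and 13.6 in WT and 31.6 and 46.1 in KO (1.13). Cd300e (0.93) and Cd200r3 (0.93) also had raised sites. RNA was higher for 12 of the 20 genes of this list with a value and lower for 3.

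Lysosome and phagocytosis genes had 12 rises (12.1%, against 4.65% of all sites) and 5 falls (5.05%, against 3.18%) at 99 sites (median 0.12). The members named by size of change were Gpnmb (1.63), Lamp2, a lysosomal membrane protein (-2.03), the proton pump subunit Atp6v1a (-1.31) and the protease Lgmn (-0.96). The Lamp2 site lay near the floor, with 7.21 and 8.32 in WT and 1.05 and 1.21 in KO (SE 0.69). RNA was higher in KO for Gpnmb (4.20), Lamp2 (0.32) and Atp6v1a (0.64) and lower for Lgmn (-0.37). Inflammatory cytokines and mediators had 12 rises (9.09%) and 3 falls (2.27%) at 132 sites (median 0.12), and those named were Slpi (1.54), Il33 (1.39), Csf1 (1.36) and Spp1 (1.33). The Csf1 site had 21.6 and 18.9 in WT and 59.0 and 48.5 in KO. Osteoclast genes had 7 rises (7.29%) and 1 fall (1.04%) at 96 sites with a median of -0.03, with Mitf (1.03), Ctsk (0.77) and Atp6v0d2 (0.71) up and Nfatc1 (-0.64) down.

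In the other lists between 0% and 6.06% of sites rose, against 4.65% of all sites (and 3.18% lower), and the members named below are single sites that say nothing of their list. PU.1 and lineage transcription factors had 15 rises (3.42%) and 19 falls (4.34%) at 438 sites. A Klf9 site fell from 16.4 and 15.1 in WT to 3.16 and 1.21 in KO (-2.47). Ets1 (-1.96) and Maf (-1.20) had lowered sites and Irf8 a raised one (1.52). The Ets1 site was low, with 15.7 and 15.9 in WT and 7.37 and 1.21 in KO (SE 0.65). RNA was lower in KO for Klf9 (-3.13) and higher for Maf (2.16). Irf8 RNA did not pass the test (-0.05), and Ets1 RNA was not tested. Macrophage identity genes had 9 rises and 4 falls at 181 sites, with a raised site near Tlr4 (1.09) and a lowered one near Tlr2 (-1.63), both receptors for bacterial products. RNA was higher in KO for both Tlr4 (0.76) and Tlr2 (0.51). Lipid handling genes had 7 and 6 at 158 sites, among them rises near Fabp5 (1.45) and Abca1, the cholesterol exporter (1.07). AP-1 and ATF factors had 5 and 5 at 116 sites, with lowered sites near Jun (-0.87) and Jdp2 (-0.76) and a raised one near Fosl1 (1.25). RNA of these genes went the other way, with Jun (1.21) and Jdp2 (1.01) higher and Fosl1 (-0.83) lower in KO.

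Integrated stress response genes had 6 rises and 1 fall at 99 sites, with raised sites near the asparagine synthetase gene Asns (1.11), Stc2 (1.08), Phgdh (0.96) and the cystine transporter Slc7a11 (0.95). All 25 genes of this list with an RNA value were higher in KO, against 18% of genes, but the list was chosen with earlier results known. NF-kB feedback genes had 8 and 6 at 213 sites, chemokines 4 and 2 at 76, cell cycle genes 6 and 3 at 119, corepressor complex genes 1 and 3 at 57 and interferon-stimulated genes 1 and 3 at 93. Markers of other cell types had 0 and 1 of 24 sites for lymphocytes, 1 and 1 of 36 for granulocytes, mast and dendritic cells, and 1 and 2 of 27 for fibroblasts and epithelium. No list was tested as a set. With LPS the effect of genotype differed from the untreated one (interaction term, adjusted p under 0.05) at the sites named here for Klf9, Cd200r4, Asns, Il33, Spp1, Csf1 and Atp6v0d2: at the first 6 the LPS change did not pass the test, and at Atp6v0d2 it was a fall (-0.65, adjusted p = 0.0423).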

How the data were processed

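PU.1, JunB and RNA values were deposited by the authors as reads per 10000000 mapped reads, with decimal commas, per the file headers; the low values were whole multiples of 1 read (tolerance 0.05, up to 200 reads), which gave the depth. ATAC-seq values were deposited on a log2 scale by the authors. The submitters' processing notes name Bowtie2, HOMER, BWA, HISAT2, DESeq2, MACS2, edgeR and mm9, with no version or role. Site positions, nearest genes and repeat names are the authors'.

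Libraries were scaled by the trimmed mean of M values over all sites. All 8 PU.1 libraries (4 groups) entered 1 limma fit of log2(scaled reads per 10000000 + 1) with precision weights (limma 3.58.1, R 4.3.3), two-sided, with Benjamini-Hochberg adjustment over all sites tested and a threshold of 0.05; JunB was fitted likewise. RNA and ATAC-seq used limma with a trend. The RNA fit took the untreated and the LPS-treated WT and KO libraries together, so the LPS-treated ones share in its scaling and spread. Among these, replicate 4 of WT with LPS differed from the other libraries of its group by a chi-square per gene of 80.7 to 112. Low sites were left out by a minimum of 10 reads. The script was tested on simulated data. Replicate numbers did not pair the libraries. Sites overlapped where they shared at least 1 base (bedtools 2.31.1). Intervals of shares are exact binomial (Clopper-Pearson). Sequences were read from the mouse NCBIM37 genome, which holds 21 of the 29 chromosome names of the PU.1 table; 52033 of the 52093 sites lie on these, none past the end, and the others entered no motif share.

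Sites named: the 12 called sites with the largest rise and the 12 with the largest fall, with a mean of at least 50 in the higher group, KO libraries on 1 side of both WT libraries and at most 1 per gene; the 5 highest WT sites; up to 4 members of each of 17 gene lists by size of change; the 10 largest RNA rises and 10 largest falls among genes with a mean of at least 100; and 6 loci. The members and lists were chosen with earlier results of these data known. Alternatives tried are in the closing section. Tables for other ChIP targets were not used here.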

Additional observations from a re-analysis of the deposited data

Results flagged for a closer look

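Of 158 groups of 4 RNA libraries looked at for the named genes, 7 held a library far from the other 3, and chance alone gives about 1 in 20. These were Atp6v0d2 in WT (77.3 reads per 10000000, the lowest library), Filip1l in KO (103, the lowest), Irf8 in WT (715, the lowest), Sh3pxd2a in WT (108, the lowest), Slc7a11 in KO (1283, the highest), Treml2 in WT (0.985, the other libraries at 0) and Zfp395 in KO (0.960, the others at 0).

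The KO against WT change in PU.1 differed between LPS and no LPS in these libraries, by the interaction term of the limma fit, at 2189 sites where it was higher and 2110 where it was lower with LPS. Among named sites it was higher with LPS, in log2 units, at Klf9 (2.64), Dusp11 (2.56), St3gal3 (2.11), Marco (1.84), Ccdc93 (1.54), Pitpnb (1.49), Spsb1 (1.48), Gm12530 (1.46), Sync (1.41), Ccl9 (1.05), Ccl24 (0.92) and Ier3 (0.90), all falls without LPS, and at a Rarb site not called without LPS (2.98, at 17554034). It was lower with LPS at the ribosomal RNA repeat sites nearest to Txndc11 (-2.20), Cdk8 (-1.84), Gm8579 (-1.82) and Filip1l (-1.72). Among rises of the gene lists and of Rarb it was lower at Cd200r4 (-2.09), Il33 (-1.97), Asns (-1.94), Spp1 (-1.44), Atp6v0d2 (-1.36), Rarb (-1.22, at 17380056), Laptm5 (-1.14), Csf1 (-1.08), Dusp5 (-0.97), Irf2 (-0.90), Cdk6 (-0.89), S100a8 (-0.85) and Ccl11 (-0.62). It was also lower at Col18a1 (-0.99), Dmwd (-0.49), Ccl2 (-1.05, the site at 81824167), Cd36 (-0.85 at 17384373 and -0.76 at 17345421), Gm17746 (-0.80), the Lrrc4c satellite site (-0.74), H2afy (-0.57), Esr1 (-0.56) and Atp1b3 (-0.27).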

How the results depend on the processing

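The untreated counts, 2421 higher and 1653 lower, depend on the scaling, the weights and single libraries: library totals alone gave 271 and 24052, and limma without weights 917 and 1005. With LPS, library totals gave 984 and 13143 in place of 2546 and 2027. Leaving out 1 library at a time gave 925 to 1423 higher and 380 to 1124 lower without LPS, 696 to 1684 and 596 to 1210 with LPS, 553 to 4481 and 479 to 2344 for JunB, 1747 to 2365 and 1442 to 1722 for ATAC-seq, and 1765 to 1939 and 1730 to 1846 for RNA. Where 1 library remains it is assumed to vary like the other groups. RNA fitted with only the untreated libraries gave 3651 and 3562, in place of 2122 and 2058 with the LPS-treated libraries in the same fit. The replicate block gave 2424 and 1732 for PU.1 without LPS and moved no count by over 1.5 times. Without ribosomal RNA and satellite sites the counts were 2402 and 1653. Loess scaling, the exclusion of repeats, library totals with LPS and the RNA fit were chosen after seeing the data. The edgeR and DESeq2 tests on recovered reads were not run.

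Of 113 named sites that were called, 50 stayed called in the same direction under all settings but library totals, and 32 of 68 called rises remained called with library totals. With library totals these sites, each called under at least 1 of the scalings compared, turned to lower in KO: Atp1b3 (-0.15), Bcl2l11 (-0.54, and -0.26 with loess), Ccl2 at 81836248 (-0.54), Cd200r4 at 44833315 (-0.44), Cd36 at 17360480 (-0.46), Csf1r (-0.38 and -0.34), Esr1 (-0.22), H2afy (-0.27), Irf2 (-0.046), Krt5 (-0.091), Opcml (-0.073), Rrm2 (-0.017), S100a8 (-0.047) and Spi1 (-0.52 and -0.48). Library totals move the median site from -0.005 to -0.54, so sites with small rises turn with the scaling itself. What lies behind the lower share of KO reads in sites was not tested. Depth limits low sites: in the lowest of 10 groups by level few sites could be called.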
